A study of Mus musculus with 24 samples.

Results

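The p53 pathway and the inhibitors of cyclin-dependent kinases were followed through 32 genes in βTC3 cells, a mouse insulinoma line from the Rip-Tag2 model. The 32 were p53 itself and its 2 inhibitors, 6 CDK inhibitors, and 23 genes known as p53 targets or effectors in growth arrest, DNA repair or cell death. They were listed by gene symbol, with earlier results of these data known, and each symbol matched 1 of 46517 gene entries. Phlda3 was not included. Of the 32, 31 were tested with 14866 genes in all. Fas, a death receptor and p53 target, had between 0 and 5 counts a library and was not tested.

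The cells carried a doxycycline (DOX) inducible plasmid named PB-31, either without an insert named in the labels (control line), with the miR-23b cluster, or with miR-137. Each line was sampled without DOX (7 days in plain DMEM) and after 7 days in DOX at 2 µg/ml, and the 2 miRNA lines also 7 days after DOX had been removed (withdrawn). This gave 8 groups of 3 libraries, from wells plated in triplicate. There was no withdrawn control line. The withdrawn cells were therefore in culture longer than those without DOX, and time in culture and DOX history cannot be told apart there. All groups carry the SV40 T antigen, which the rat insulin promoter drives in beta cells of this model. Nothing in the labels says whether each line was 1 clone or a pool, so a difference between lines cannot be told apart from a difference between the cells that received each plasmid.

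As background, p53 is a transcription factor that is held low by MDM2, a ubiquitin ligase, and by its relative MDM4. When it is freed by DNA damage or other stress it switches on Cdkn1a and other arrest genes, repair genes and death genes, and also Mdm2, which closes a feedback loop. CDK inhibitors of the Cip/Kip family (Cdkn1a, Cdkn1b, Cdkn1c) bind cyclin-CDK complexes, and those of the INK4 family (Cdkn2a, Cdkn2b, Cdkn2c) bind CDK4 and CDK6 and so keep RB active. SV40 large T antigen binds p53 and the RB proteins and holds both back. In beta cells several of these inhibitors restrain proliferation, and in insulinoma lines with T antigen that restraint is bypassed. RNA levels say nothing of how much p53 protein is free to act.

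The induced miRNAs of the first line are miR-23b, miR-27b and miR-24, made from 1 precursor. The mature forms of miR-27b, miR-24 and miR-137, from RefSeq (GRCm38.p6), are shown with the seed (bases 2 to 8) in capitals because the seed sets which 3′ UTR sites pair with them. These 3 seeds differ. Sites of miR-23b itself were not searched.
miR-27b-3p: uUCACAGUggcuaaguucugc
miR-24-3p: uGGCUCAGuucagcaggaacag
miR-137-3p: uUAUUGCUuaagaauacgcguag

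Sites of 7 bases that match these seeds were searched in the annotated 3′ UTRs on the transcript's strand. ACTGTGA, the match to miR-27b-3p, was in 17.9% of the 12979 tested genes with a 3′ UTR and in 11 of the 32 members. CTGAGCC, for miR-24-3p, was in 19.6% of those genes and in 7 members. AGCAATA, for miR-137-3p, was in 10.6% of them and in 3 members (Gadd45a, Rrm2b and Ddb2). A match is a description of the letters and not evidence of pairing. The windows below belong to 4 members that fell in the miR-23b line (Plk3, Btg2, Cdkn1b and Apaf1) and to 2 that rose there (Eda2r and Plk2), so that both directions are shown. They are not in proportion: of the 16 members with a miR-27b-3p or miR-24-3p site, 9 rose and 5 fell there. Capitals mark the 7 matching bases, and the coordinates (GRCm38) are those of the capitals.
Plk3, miR-24-3p, chr4:117128940-117128946, minus strand: gatcctgggcCTGAGCCtgaaaggctt
Plk3, miR-24-3p, chr4:117128775-117128781, minus strand: tgagataagcCTGAGCCttagctccca
Btg2, miR-27b-3p, chr1:134076991-134076997, minus strand: aaggttagcaACTGTGAatgagagggg
Cdkn1b, miR-24-3p, chr6:134925425-134925431, plus strand: aggttgcataCTGAGCCaagtataatt
Apaf1, miR-27b-3p, chr10:90989822-90989828, minus strand: ttacatacttACTGTGAtttaagccaa
Eda2r, miR-27b-3p, chrX:97336707-97336713, minus strand: tcaagtcctgACTGTGAtgtttctgag
Plk2, miR-27b-3p, chr13:110400284-110400290, plus strand: actcttttccACTGTGAgatcaacagg

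Promoters from 250 bases before to 50 after each start (RefSeq, GRCm38.p6) were searched on both strands for the p53 half-site consensus of 10 letters. A full match was in 8.36% of 32851 promoters and in 11 of the 32 promoters of members. The 32 belong to the 23 members that had an entry, and 10 of these members had a match. A pair of half-sites was allowed at most 1 mismatch over both and a spacer of at most 13 bases. Such pairs were in 1.09% of all promoters and in 4 of the 32 of members, those of Cdkn1a, Ccng1, Bax and Polk. They are shown because 3 of these genes rose in the induced miR-23b line and Bax fell. A gene can have more than 1 start in this set. The start used for the Polk pair lies inside the annotated gene (chr13:96480690-96542579) and not at its 5′ end. Capitals mark the half-sites.
Cdkn1a, chr17:29090928-29090947, plus strand, 51 to 32 bases before the start: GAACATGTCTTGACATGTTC
Ccng1, chr11:40755462-40755481, minus strand, 195 to 176 bases before the start: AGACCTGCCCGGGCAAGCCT
Polk, chr13:96519398-96519418, minus strand, 231 to 211 bases before the start: GAACTAGCCTcAAACTTATTC
Bax, chr7:45467090-45467110, minus strand, 212 to 192 bases before the start: AAGCATATCCcAGGCAAGCTT
The cAMP response element TGACGTCA, a palindrome, was in 1.79% of promoters and in 3 of the 32 of members, those of Btg2, Cdkn2b and Plk2. Its letters do not overlap the p53 half-sites shown.

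The libraries held between 15759849 and 24144737 gene counts, and each value below is CPM, the counts of a gene scaled to a common library size after TMM. The insert checks the labels: the Mir27b locus averaged 85.5 ± 5.35 CPM (SD, n = 3, unscaled library sizes) in the miR-23b line on DOX, 0.481 ± 0.0597 without it and 0.111 ± 0.106 after withdrawal. Gm26871, the transcript that hosts Mir137, averaged 123 ± 3.11 CPM in the miR-137 line on DOX and 4.35 ± 0.389 without. The summed level of 10 beta cell markers was 12183 to 12861 CPM in the miR-23b line on DOX and 14503 to 17692 in the other 21 libraries. Markers of other cells were low in every library: at most 4.52 CPM for 7 fibroblast genes, 4.13 for 6 leukocyte genes (Cd3e at 0), 1.28 for 5 endothelial genes and 1.21 for 6 exocrine genes (Amy2a5 and Prss2 at 0). Endothelial markers summed highest in the control line on DOX (0.902 to 1.28 CPM). The part of these differences in the results was not tested, and in bulk RNA fewer cells of a type and less RNA per cell cannot be told apart.

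Per transcript length, in the authors' TPM values, the members spanned a wide range. Cdkn2c, which encodes p18INK4c, was highest with a mean of 339 TPM over the 24 libraries (303 to 382). Cdkn2a followed at 145 TPM (124 to 173) and Trp53 at 120 TPM (109 to 138), and the libraries of these 2 overlapped. Gadd45a (103 TPM), Cdkn1b (92.9), Ei24 (81.4), Cdkn1a (78.8) and Mdm2 (77.9) came next. The ranges of each of these 5 overlapped the next in the order, so that order is not resolved. At the low end Tnfrsf10b (0.300 TPM), Pmaip1 (0.165), Eda2r (0.158) and Fas (0.0242) were barely detected. The count for Cdkn2a joins the transcripts of p16INK4a and p19ARF, an inhibitor of MDM2, and the 2 cannot be separated in it.

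**Figure D1:**
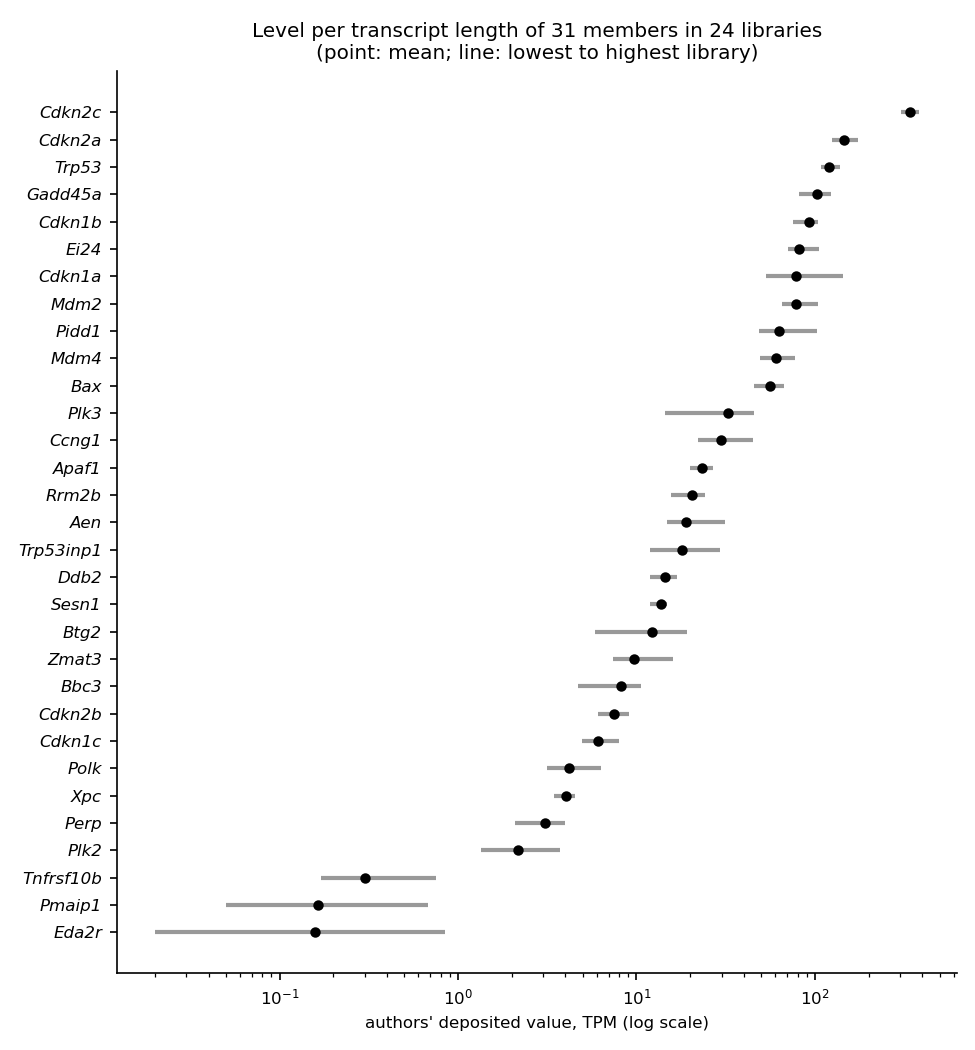
Level per transcript length of 31 members in the 24 libraries, as the authors' deposited TPM on a log axis. The point is the mean and the line runs from the lowest to the highest library. Cdkn2c lies highest at a mean of 339 TPM and Eda2r lowest at 0.158.

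On 7 days of DOX the miR-23b line was where these genes moved most. Of 31 members tested, 14 rose and 10 fell against the same line without DOX, at an adjusted p below 0.05 in edgeR's quasi-likelihood test over all 14866 genes. Of all genes tested, 57.4% were called in that comparison, 28.8% higher and 28.6% lower. Of members tested, 45.2% were higher and 32.3% lower. The share of rises thus stood above that of all genes, and the share of falls was near it. Members were listed with earlier results of these data known, so the excess of rises is a description. The 14 include Eda2r and Pmaip1. Only groups on DOX had all 3 libraries of these 2 above the cutoff of the filter on low counts. Of the other 29 members 12 rose and 10 fell. On the log2 scale the median size of change was 0.40 over members tested (0.38 without these 2) and 0.23 over all genes. On the scale of the authors' TPM the called genes split differently, 67.0% of them higher against 50.2% here. There all genes shifted up by a median of 0.10 on the log2 scale in this comparison. No called member changed direction on that scale.

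In the control line, DOX was followed by a rise of 5 members and a fall of 9 (37.8% of all genes called, 18.5% higher and 19.3% lower). In the miR-137 line 10 rose and 9 fell (42.9% of all genes called, 21% higher and 21.8% lower). The median size of change over members was 0.10 in the control line and 0.17 in the miR-137 line, beside 0.14 and 0.16 over all genes. The members' median thus exceeded that of all genes in the miR-23b line, was near it in the miR-137 line and was below it in the control line.

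The difference between the responses was tested directly. The miR-23b response exceeded the control response for 14 members and was below it for 8 (37.6% of all genes called, 18.1% higher and 19.4% lower). Against the miR-137 response it was higher for 13 and lower for 9 (35.2%, with 16.8% higher and 18.4% lower). The miR-137 response differed from that of the control line for 6 members, 4 higher and 2 lower (10.7%, with 5.9% higher and 4.78% lower). These counts include Eda2r and Pmaip1, which had all 3 libraries above the filter's cutoff only in groups on DOX in which they are high. Of the other 29 members, 13 were higher and 8 lower in the first contrast, 12 and 9 in the second, and 4 and 1 in the third. On the TPM scale 69.9% of the called genes were higher in the miR-23b response minus the control response, against 48.3% here, and 73.9% against 47.7% in the miR-23b response minus the miR-137 response, where all genes shifted by a median of 0.11.

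Levels of single libraries were also compared. In 12 members the 3 libraries of the miR-23b line on DOX were all above the other 21, and in 5 they were all below them. Of all genes tested, 11.8% and 11.5% were apart in this way. The 12 were Mdm2, Mdm4, Cdkn1a, Ccng1, Trp53inp1, Zmat3, Tnfrsf10b, Polk, Aen, Eda2r, Pidd1 and Ei24, of which Eda2r had to be high there to be tested. The 5 were Cdkn1b, Cdkn2a, Btg2, Plk3 and Apaf1.

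**Figure D2:**
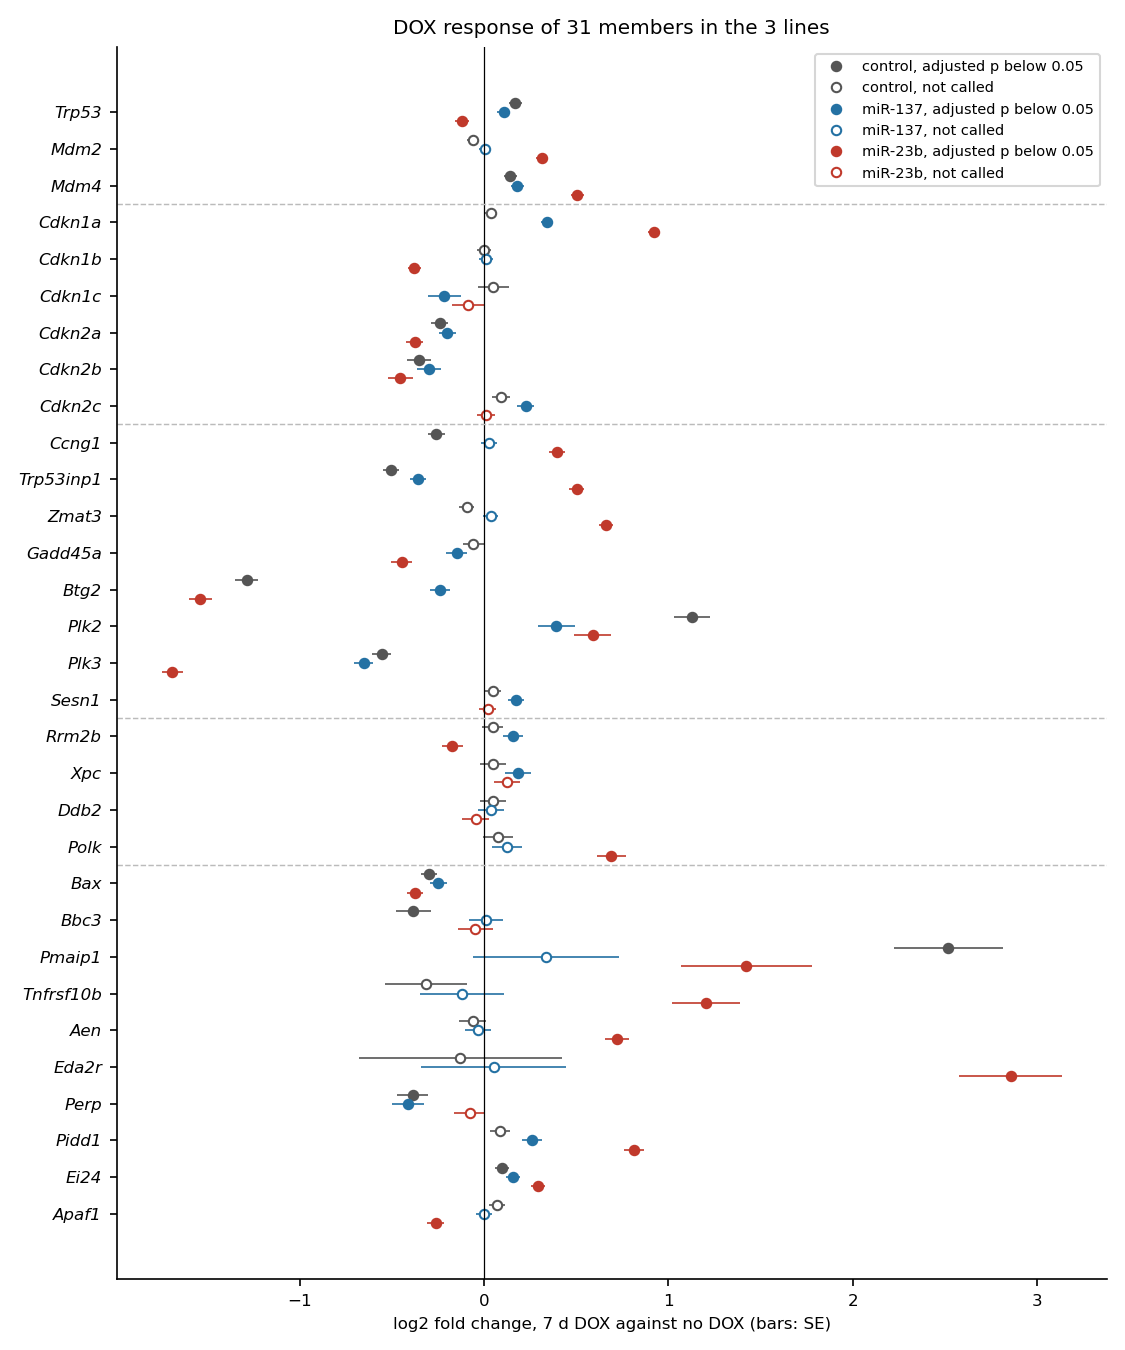
Log2 fold change of 31 members on 7 days of DOX against no DOX in the control line (grey), the miR-137 line (blue) and the miR-23b line (red), with SE bars and filled points where the adjusted p is below 0.05. Members are ordered by role between dashed lines. The red points of Eda2r (2.86) and Plk3 (-1.69) lie at the ends of the miR-23b response, and Pmaip1 reaches 2.52 in the control line.

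Trp53 itself, the p53 gene, was read at 99.5, 96.5 and 102 CPM in the miR-23b line without DOX and at 89.0, 89.6 and 95.8 with it. It fell slightly, by 0.12 on the log2 scale (SE 0.04, adjusted p = 0.00592), and the groups did not overlap. On the TPM scale the fall was 0.04 and was not called. In the control line Trp53 went the other way, from 101, 102 and 101 to 113, 115 and 115 CPM (0.17, SE 0.04, adjusted p = 0.000214). With miR-137 it rose by 0.11 (adjusted p = 0.0171), from 93.1, 92.4 and 97.3 CPM to 100, 106 and 97.8. That call was lost with 3 of the 6 libraries left out in turn (miR-137 no DOX replicates 1 and 2 and 7 d DOX replicate 2), where the value was 0.07 to 0.10. The miR-23b response of Trp53 was lower than that of the control line by 0.29 (SE 0.05, adjusted p = 2.22e-05).

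The inhibitors of p53 rose in the same cells in which Trp53 fell. Mdm2, at once a p53 target and the main inhibitor of p53, was read at 78.7, 81.2 and 78.8 CPM without DOX and at 98.5, 97.8 and 101 with it in the miR-23b line. It rose by 0.31 (SE 0.03, adjusted p = 1.38e-10). The control line read 83.5, 82.1 and 83.1 CPM without and 77.8, 79.2 and 81.7 with DOX, a change of -0.06 (SE 0.03) that was not called, and in the miR-137 line the change was 0.01 (SE 0.03). The miR-23b response of Mdm2 was larger than both, by 0.37 (adjusted p = 3.27e-08) and 0.31 (adjusted p = 1.65e-06).

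Mdm4, which binds and silences the activation domain of p53, rose in all 3 lines. It went from 113, 112 and 116 CPM to 160, 163 and 162 in the miR-23b line, a rise of 0.50 (SE 0.04). The rises were 0.14 in the control line and 0.18 in the miR-137 line (SE 0.04 in each), neither of them called on the TPM scale. The excess in the miR-23b line was 0.36 over the control line and 0.33 over the miR-137 line.

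Among the 6 CDK inhibitors, 1 rose and 3 fell with miR-23b induction (28.8% of all genes higher and 28.6% lower). Cdkn1a, which encodes p21, the best known p53 target, was the 1 that rose. It was read at 109, 117 and 118 CPM without DOX and at 222, 211 and 220 with it. The rise was 0.92 on the log2 scale (1.90-fold, SE 0.03, adjusted p = 5.76e-24). All 3 induced libraries lay far above every other library of the series, the next highest being those of the miR-137 line on DOX.

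In the miR-137 line Cdkn1a went from 117, 116 and 112 CPM to 148, 143 and 147, a rise of 0.34 (SE 0.03, adjusted p = 1.11e-10). The control libraries read 121, 115 and 122 without and 121, 126 and 120 with DOX, a change of 0.04 (SE 0.03, adjusted p = 0.434). The order of the 3 responses was resolved at each step: miR-137 exceeded control by 0.31 (adjusted p = 2.99e-05) and miR-23b exceeded miR-137 by 0.58 (adjusted p = 1.91e-12).

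Cdkn1b, which encodes p27, fell in the miR-23b line only: the direct difference from the control response was -0.38 (adjusted p = 1.70e-07) and from the miR-137 response -0.39 (adjusted p = 1.03e-07). Its libraries read 262, 267 and 256 CPM without DOX and 203, 203 and 198 with it, a fall of 0.38 (SE 0.04). In the other lines it lay between 245 and 280 CPM. Its 3′ UTR holds 1 miR-24-3p site, shown above.

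The INK4 genes of the Cdkn2a/Cdkn2b locus fell with DOX in all 3 lines, the control line included. Cdkn2a fell by 0.38 in the miR-23b line, 0.24 in the control line and 0.20 in the miR-137 line (SE 0.05 in each), and its miR-23b libraries went from 160, 164 and 141 to 117, 126 and 116 CPM. Cdkn2b, which encodes p15, fell by 0.45, 0.35 and 0.30 in the same order (SE 0.07 in each). The miR-23b and control responses of these 2 genes were not found to differ. Cdkn2c, the most abundant member, changed by 0.01 in the miR-23b line (not called) and rose by 0.23 in the miR-137 line (SE 0.05, adjusted p = 0.000127). Cdkn1c, which encodes p57, was 10.1 to 16.4 CPM throughout. Its fall of 0.21 in the miR-137 line (adjusted p = 0.0489) came from groups that overlapped and was lost with 4 of 6 libraries left out (adjusted p 0.105 to 0.221), all but miR-137 no DOX replicate 3 and 7 d DOX replicate 1.

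**Figure D3:**
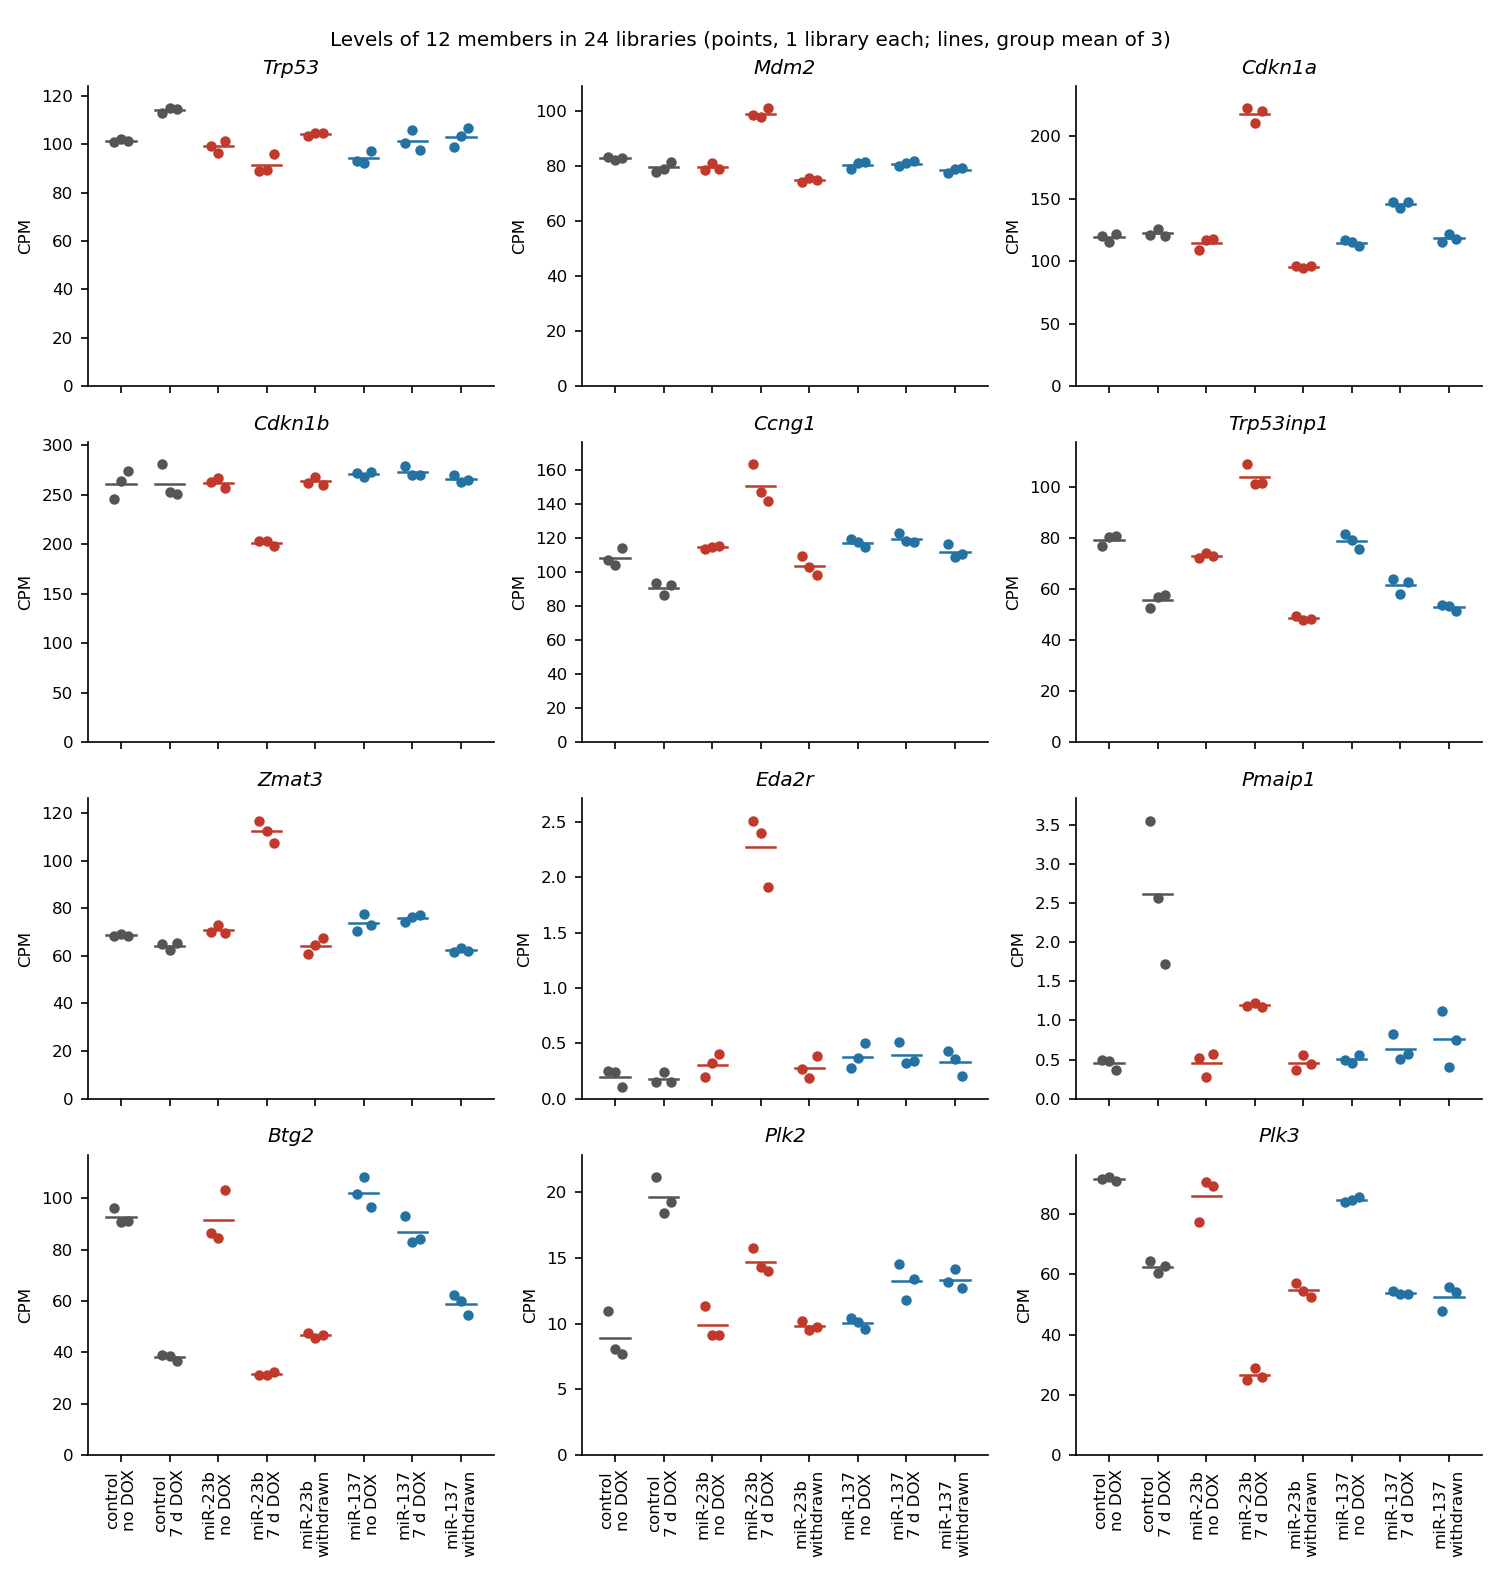
CPM of 12 members in the 24 libraries, 1 panel a gene with the axis from 0, points for libraries and lines for the mean of 3, in grey for the control line, red for miR-23b and blue for miR-137. Cdkn1a, Zmat3 and Eda2r stand highest in the miR-23b line on DOX, while Pmaip1 and Plk2 stand highest in the control line on DOX.

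Of 8 members of growth arrest and stress, 4 rose and 3 fell in the induced miR-23b line (28.8% of all genes higher and 28.6% lower). Zmat3, an RNA-binding zinc finger protein induced by p53, went from 70.1, 73.1 and 69.7 CPM to 117, 113 and 108 and rose by 0.66 (SE 0.04, adjusted p = 2.66e-17). It was between 60.7 and 77.8 CPM in all other groups. Ccng1, cyclin G1, a p53 target that recruits a phosphatase to MDM2, went from 114, 115 and 115 CPM to 163, 147 and 141 and rose by 0.40 (SE 0.04). These 2 genes show a response that the DOX-treated control line did not have: Ccng1 fell there by 0.26 (SE 0.04) and Zmat3 changed by -0.09 (not called).

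Trp53inp1, a stress protein that modulates p53, moved in opposite directions in the lines. In the miR-23b line it rose from 72.1, 74.1 and 73.1 CPM to 109, 101 and 101 (0.50, SE 0.04, adjusted p = 1.83e-13). The control line showed a fall from 76.7, 80.1 and 80.6 to 52.4, 57.0 and 57.6 (-0.51, SE 0.04, adjusted p = 2.30e-12). With miR-137 it fell by 0.36 (SE 0.04, adjusted p = 6.32e-09). The miR-23b response exceeded that of the control line by 1.01 (SE 0.06, adjusted p = 1.70e-16), that is 2.02-fold.

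Btg2, an antiproliferative cofactor of mRNA deadenylation, and Plk3, a stress-activated polo-like kinase, fell furthest. Btg2 was read at 86.5, 84.4 and 103 CPM without DOX and at 30.96, 30.99 and 32.4 with it in the miR-23b line, a fall of 1.54 (SE 0.06). In the control line it went almost as far down on DOX, from 96.4, 90.6 and 91.4 to 39.1, 38.5 and 36.5 CPM, a fall of 1.29 (SE 0.06). With miR-137 it went from 102, 108 and 96.8 to 93.2, 83.1 and 84.1, a fall of only 0.24 (SE 0.05).

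So the Btg2 response of the miR-137 line stood 1.05 above that of the control line (SE 0.08, adjusted p = 1.04e-11), and on DOX each miR-137 library was above each control library. The further fall in the miR-23b line against the control line was 0.25 (adjusted p = 0.0218). It was lost without control 7 d DOX replicate 1, miR-23b no DOX replicate 3, or miR-23b 7 d DOX replicate 1 or 2 (adjusted p 0.0520 to 0.144), and on the TPM scale (-0.11).

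Plk3 was read at 77.4, 90.9 and 89.5 CPM without DOX and at 24.9, 29.0 and 25.9 with it in the miR-23b line, a fall of 1.69 (SE 0.06, adjusted p = 5.96e-25). It fell by 0.55 in the control line and by 0.65 in the miR-137 line (SE 0.05 in each). The fall in the miR-23b line was larger by 1.14 than in the control line (SE 0.08, adjusted p = 9.53e-15) and by 1.04 than in the miR-137 line (adjusted p = 1.55e-13). Its 3′ UTR holds the pair of miR-24-3p sites shown above.

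Plk2, the related kinase and p53 target, rose in every line and most in the control line. It went from 10.98, 8.04 and 7.67 CPM to 21.2, 18.4 and 19.3 there (1.13, SE 0.10), and rose by 0.59 in the miR-23b line and 0.39 in the miR-137 line (SE 0.10 in each). The control response was larger than that of the miR-23b line by 0.54 (adjusted p = 0.00224) and than that of the miR-137 line by 0.74 (adjusted p = 0.000349). Plk2 holds 3 miR-27b-3p sites in its 3′ UTR, the first of which is shown above.

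Gadd45a, a p53 target that binds PCNA and CDK1, fell by 0.45 in the miR-23b line (SE 0.06, adjusted p = 3.36e-08), from 53.2, 54.2 and 53.6 to 42.7, 38.7 and 36.2 CPM. Its change was -0.06 in the control line (not called) and -0.15 in the miR-137 line, a call lost with 4 of 6 libraries left out (all but miR-137 no DOX replicate 3 and 7 d DOX replicate 2) at values of -0.15 to -0.11. A gene on the other strand, E230016M11Rik, overlaps 19.1% of its exons, and the labels do not say whether the counting used strand. Sesn1, a sestrin that restrains mTORC1, was not called in the miR-23b line (0.02) or the control line (0.05) and rose by 0.17 in the miR-137 line (SE 0.05).

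Of 4 members of DNA synthesis and repair, Polk changed most. Polk, the translesion DNA polymerase kappa, went from 16.6, 15.4 and 15.4 CPM to 25.3, 27.2 and 23.4 and rose by 0.69 in the miR-23b line (SE 0.08, adjusted p = 1.04e-09). It was not called in the control line (0.08) or the miR-137 line (0.12), and the miR-23b response was larger by 0.61 and 0.57. Rrm2b, the p53-inducible subunit of ribonucleotide reductase, fell by 0.17 in the miR-23b line (adjusted p = 0.0101), a call lost without miR-23b no DOX replicate 1 (-0.12, adjusted p = 0.0860) and on both TPM scales. It rose by 0.16 in the miR-137 line, which was lost without miR-137 no DOX replicate 1 or 7 d DOX replicate 2 (0.15 in each). Xpc, a damage sensor of nucleotide excision repair, rose by 0.18 in the miR-137 line (adjusted p = 0.0288), a call lost without miR-137 no DOX replicate 3 or 7 d DOX replicate 1 or 2 (0.14 to 0.17). Ddb2, its partner in recognising ultraviolet damage, was called in none of the 3 DOX responses, at 14.1 to 18.3 CPM throughout. Acp2 on the other strand overlaps 23.8% of the Ddb2 exons.

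Of 10 tested members of cell death, 6 rose and 2 fell in the induced miR-23b line (28.8% of all genes higher and 28.6% lower). The 6 include Eda2r and Pmaip1, which had all 3 libraries of a group above the filter's cutoff only on DOX. Aen, a nuclease that digests DNA in apoptosis, went from 17.6, 17.4 and 19.1 CPM to 29.0, 29.0 and 31.4 (0.72, SE 0.07, adjusted p = 3.50e-12). Pidd1, the scaffold of the PIDDosome that activates caspase-2, went from 40.01, 38.0 and 41.0 CPM to 64.6, 71.6 and 73.3 (0.82, SE 0.05, adjusted p = 7.30e-16). Pidd1 also rose in the miR-137 line, by 0.26 (SE 0.06), and the change in the control line was 0.09 (not called). Aen was not called in either of those lines.

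The receptors with a death domain or related to them were rare transcripts. Eda2r, a receptor of the TNF family that p53 induces, held 3, 7 and 7 counts in the miR-23b libraries without DOX and 55, 55 and 31 with it, or 0.194, 0.326 and 0.400 against 2.51, 2.397 and 1.91 CPM. It rose by 2.86 (SE 0.28, adjusted p = 2.57e-11). Eda2r passed the filter on low counts only through this group, so it had to be higher there to be tested at all. In the other 21 libraries it had 2 to 10 counts. Tnfrsf10b, a TRAIL receptor, went from 1.75, 1.77 and 1.43 CPM to 4.11, 3.49 and 3.89 and rose 2.30-fold (log2 SE 0.18, adjusted p = 5.55e-07). It ranged from 1.02 to 2.25 CPM in all other groups. Fas held 5, 4 and 3 counts in the miR-23b libraries on DOX and 0 to 2 in each other library. No test was made of it.

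Pmaip1, which encodes the BH3-only protein NOXA, was highest in the control line on DOX. It was read there at 3.56, 2.57 and 1.73 CPM against 0.499, 0.488 and 0.370 without DOX, a rise of 2.52 (SE 0.29, adjusted p = 6.08e-09). In the miR-23b line it went from 0.517, 0.280 and 0.572 to 1.19, 1.22 and 1.17 CPM, a rise of 1.42 (SE 0.35, adjusted p = 0.000764). In the miR-137 line the change was 0.34 and was not called. Only the control and miR-23b groups on DOX had all 3 libraries of Pmaip1 above the cutoff of the filter. It had 6 to 71 counts a library. At such low counts its lower response in the miR-137 line (by 2.18 than in the control line, SE 0.53) is a description. The miR-23b and control responses were not found to differ. Its rise in the miR-23b line was not called on the centred TPM scale (0.12). The libraries of the control line on DOX also had more genes with a count (20898 to 21066) than any other library (at most 20336); the part of this was not tested.

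Bax, the pore-forming effector of mitochondrial apoptosis, did not rise with the others. It fell in all 3 lines, by 0.38 in the miR-23b line (105, 110 and 114 to 84.6, 83.9 and 85.5 CPM), by 0.30 in the control line and by 0.25 in the miR-137 line. The responses of the lines were not found to differ. Bbc3, which encodes PUMA, fell by 0.38 in the control line (SE 0.09, adjusted p = 0.00112) and changed by -0.05 and 0.01 in the miR-23b and miR-137 lines (not called). Perp, a membrane protein of p53-dependent apoptosis, fell by 0.39 in the control line and 0.41 in the miR-137 line (SE 0.09 in each) and changed by -0.08 in the miR-23b line (not called).

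Apaf1, the core of the apoptosome, fell in the miR-23b line from 60.2, 61.2 and 60.9 to 48.5, 51.3 and 52.4 CPM (-0.26, SE 0.04, adjusted p = 3.64e-06), and on the TPM scale the fall of 0.13 was not called. It was not called in the control line (0.07) or in the miR-137 line, and the difference from the control response was -0.33 (adjusted p = 3.96e-05). Ei24, a protein of the endoplasmic reticulum, rose by 0.29 in the miR-23b line and by 0.16 in the miR-137 line (SE 0.04 in each). Its rise of 0.10 in the control line (adjusted p = 0.0409) was lost with any 1 of the 6 libraries left out, at 0.07 to 0.10.

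Read by pattern over the 3 lines, Mdm2, Zmat3, Tnfrsf10b, Polk and Aen were called higher in the miR-23b line and in neither other line, as were 10.9% of all genes tested. Eda2r had the same calls, but had to be high in that group to be tested. For each of these 5 the miR-23b response was also above that of both other lines by the direct test, which held for 4.53% of all genes. A second set of 5, Cdkn2a, Cdkn2b, Bax, Btg2 and Plk3, was lower in all 3 lines (10.2% of all genes), and 3 (Mdm4, Plk2 and Ei24) were higher in all (7.41% of all genes). The Ei24 call in the control line was lost with any 1 of 6 libraries left out. Those of Mdm4 in the control and miR-137 lines were not made on the TPM scale. Among members, only Trp53 and Trp53inp1 were called in 1 direction in the miR-23b line and in the other direction in both others (1.72% of all genes). For Trp53 the call in the miR-137 line was lost in 3 of 6 removals of a library. Its fall in the miR-23b line was not called on the TPM scale.

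Members with and without these sequence letters moved in both directions. Of the 16 members with a miR-27b-3p or miR-24-3p site, 9 rose, 5 fell and 2 were not called in the miR-23b line on DOX. Of the 15 tested members without one, 5 rose, 5 fell and 5 were not called. Some of these may hold a site of miR-23b, which was not searched. Of the 10 members with a p53 half-site in the promoter window, 6 rose and 3 fell, and of the 12 tested members with an entry but no half-site 4 rose and 6 fell. In the miR-137 line Gadd45a fell, Rrm2b rose and Ddb2 was not called, these being the 3 with a miR-137-3p site.

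With both lines on DOX, the miR-23b line was above the control line for 13 members and below it for 11 (52.2% of all genes called, 25.9% higher and 26.3% lower). On the TPM scale 64.0% of called genes were higher against 49.5% here. The higher values were those of Tnfrsf10b (1.39), Trp53inp1 (0.90), Aen (0.86), Cdkn1a (0.83, SE 0.03), Zmat3 (0.81), Ccng1 (0.73), Polk (0.54), Pidd1 (0.50) and Mdm2 (0.32). The difference of 3.62 in Eda2r (SE 0.30) and that of -1.13 in Pmaip1 are descriptions. Their libraries were all above the filter's cutoff only in groups in which they are high. The lowest of the others were Plk3 (-1.23), Gadd45a (-0.46), Plk2 (-0.41), Cdkn1b (-0.37), Apaf1 (-0.33), Trp53 (-0.32, SE 0.04), Btg2 (-0.28) and Cdkn2a (-0.18, not called on the TPM scale). Cdkn1c was lower by 0.28, a call lost without control 7 d DOX replicate 1 (-0.19). These control libraries also stand in the response differences above, so the 2 readings are not independent.

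The miR-137 line on DOX was above the control line for 10 members and below it for 6 (27.3% of all genes called, 14.7% higher and 12.6% lower; 41.6% of called genes higher on the TPM scale against 53.7% here). Btg2 was higher by 1.19 (SE 0.06), Ccng1 by 0.40, Bbc3 by 0.32, Rrm2b by 0.27, Cdkn1a by 0.25 and Zmat3 by 0.24. Smaller excesses were those of Xpc (0.18), Trp53inp1 (0.14) and Ei24 (0.13). Those of Xpc and Trp53inp1 were lost in 4 and 3 of 6 removals of a library (0.15 to 0.17 and 0.10 to 0.13). Plk2 was lower by 0.57, Cdkn1c by 0.41, Gadd45a by 0.28, Plk3 by 0.21 and Trp53 by 0.17. Pmaip1 was also lower, by 2.04 (SE 0.27), with the limit of its low counts given above. Mdm2 differed by 0.03 (SE 0.03, adjusted p = 0.624). The excess of Sesn1 (0.12) was lost with any 1 library left out.

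After withdrawal each called change of the miR-23b line went back in direction. Between 7 days of DOX and 7 days after it, 11 members rose and 16 fell in the miR-23b line (52.2% of all genes called, 26.4% higher and 25.8% lower). On the TPM scale 27.8% of called genes were higher, against 50.6% here, and all genes shifted by a median of -0.11. All 14 members that had risen with DOX fell, and all 10 that had fallen rose. The 14 include Eda2r and Pmaip1, whose falls are descriptions, since all 3 libraries of a group were above the filter's cutoff only on DOX. Of the other 29 members 11 rose and 14 fell after withdrawal. Of all genes that had risen 62.9% fell, and of those that had fallen 64.1% rose. Both comparisons share the libraries on DOX, so the 2 sets of calls are not independent.

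Cdkn1a fell from 222, 211 and 220 CPM to 96.1, 94.8 and 96.2, by 1.19 (SE 0.03, adjusted p = 1.74e-26). That was below the line's own start of 109, 117 and 118 CPM, by 0.26 (SE 0.04, adjusted p = 2.28e-07), with no overlap. Mdm2 fell by 0.40 to 74.3, 75.9 and 74.9 CPM. Trp53inp1 fell by 1.10 to 49.3, 47.9 and 48.2 CPM, also below its start. The rare transcripts fell as well, Eda2r by 3.03 and Tnfrsf10b and Pmaip1 by 1.39 each, and so did Zmat3 (0.81), Pidd1 (0.74), Aen (0.67), Plk2 (0.58) and Perp (0.58). Plk3 rose by 1.04 to 57.2, 54.6 and 52.6 CPM and Btg2 by 0.57 to 47.7, 45.5 and 46.6, and both stayed below their levels without DOX. Smaller rises were those of Gadd45a (0.48), Cdkn1b (0.39), Cdkn2b (0.39), Apaf1 (0.29), Rrm2b (0.21), Cdkn2a (0.18) and Bax (0.17). The rise of Rrm2b was lost without miR-23b withdrawn replicate 1 (0.15). Trp53 rose by 0.19 to 103, 105 and 105 CPM (adjusted p = 3.92e-05), which the TPM scale put at 0.06 (not called).

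Set against the line's own level without DOX, 2 members were higher and 11 lower in the withdrawn miR-23b line (39.8% of all genes called, 19.2% higher and 20.6% lower). Of the 14 that had risen with DOX, 8 were not called, 5 were lower and Mdm4 was still higher, by 0.24 (SE 0.04, adjusted p = 9.65e-07). The other member above its start was Sesn1 (0.14, lost in 3 of 6 removals of a library at 0.11 to 0.13). The largest shortfalls were those of Btg2 (-0.97), Perp (-0.66), Plk3 (-0.65), Trp53inp1 (-0.59) and Bbc3 (-0.54). Bax (-0.21), Cdkn2a (-0.20), Zmat3 (-0.15) and Ccng1 (-0.14) were lower by less. The call of Zmat3 was lost without miR-23b withdrawn replicate 1 (-0.11) and that of Ccng1 without withdrawn replicate 3 (-0.10). The fall of Mdm2 by 0.09 (adjusted p = 0.0434) was lost with any 1 of the 6 libraries left out.

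In the withdrawn miR-137 line 8 members were higher and 8 lower than without DOX (43.4% of all genes called, 21.6% higher and 21.7% lower; 39.5% of called genes higher on the TPM scale against 49.9% here). All 8 that were lower, of 11 in the miR-23b line, were lower in both withdrawn lines: Cdkn2a, Trp53inp1, Zmat3, Bax, Bbc3, Btg2, Plk3 and Perp. Of all genes tested 15.1% were lower in both, which is 69.4% of those lower in the miR-137 line and 73.4% of those lower in the miR-23b line. Mdm4 and Sesn1 were higher in both, as were 13.2% of all genes. Btg2 was lower by 0.80, Plk3 by 0.69, Perp by 0.59, Trp53inp1 by 0.57 and Bbc3 by 0.39 in the miR-137 line, and Zmat3 (0.25), Cdkn2a (0.19) and Bax (0.14) by less. The 8 that were higher there were Plk2 (0.41), Gadd45a (0.25), Polk (0.22), Sesn1 (0.19), Ei24 (0.17), Cdkn2c (0.17), Mdm4 (0.15) and Trp53 (0.13). The calls of Polk and Cdkn2c were lost in 3 and 1 of 6 removals of a library (0.13 to 0.22 and 0.11). With no withdrawn control line, what DOX history or longer culture alone would give cannot be told apart. Cdkn1a, at 115, 122 and 118 CPM, was no longer called against its group without DOX, whose libraries it overlapped (0.04, SE 0.03, adjusted p = 0.34).

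Between DOX and withdrawal the miR-137 line changed less in these genes, with 3 members higher and 6 lower (29.5% of all genes called, 14.7% higher and 14.8% lower). Cdkn1a fell by 0.30 (SE 0.03, adjusted p = 6.61e-09) and Zmat3 by 0.28, and Bbc3 fell by 0.40 and Trp53inp1 by 0.21. Gadd45a rose by 0.40, Cdkn1c by 0.30 and Cdkn2b by 0.27. The rise of Cdkn1c was lost without miR-137 7 d DOX replicate 3 or withdrawn replicate 2 (0.21 to 0.24). Btg2 fell further, by 0.56 to 62.4, 59.9 and 54.4 CPM, whereas in the miR-23b line it rose; this difference was not tested. Pidd1 fell by 0.19, a call lost without miR-137 withdrawn replicate 1 (-0.14). Mdm2 (-0.04) and Trp53 (0.02) were not called.

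**Figure D4:**
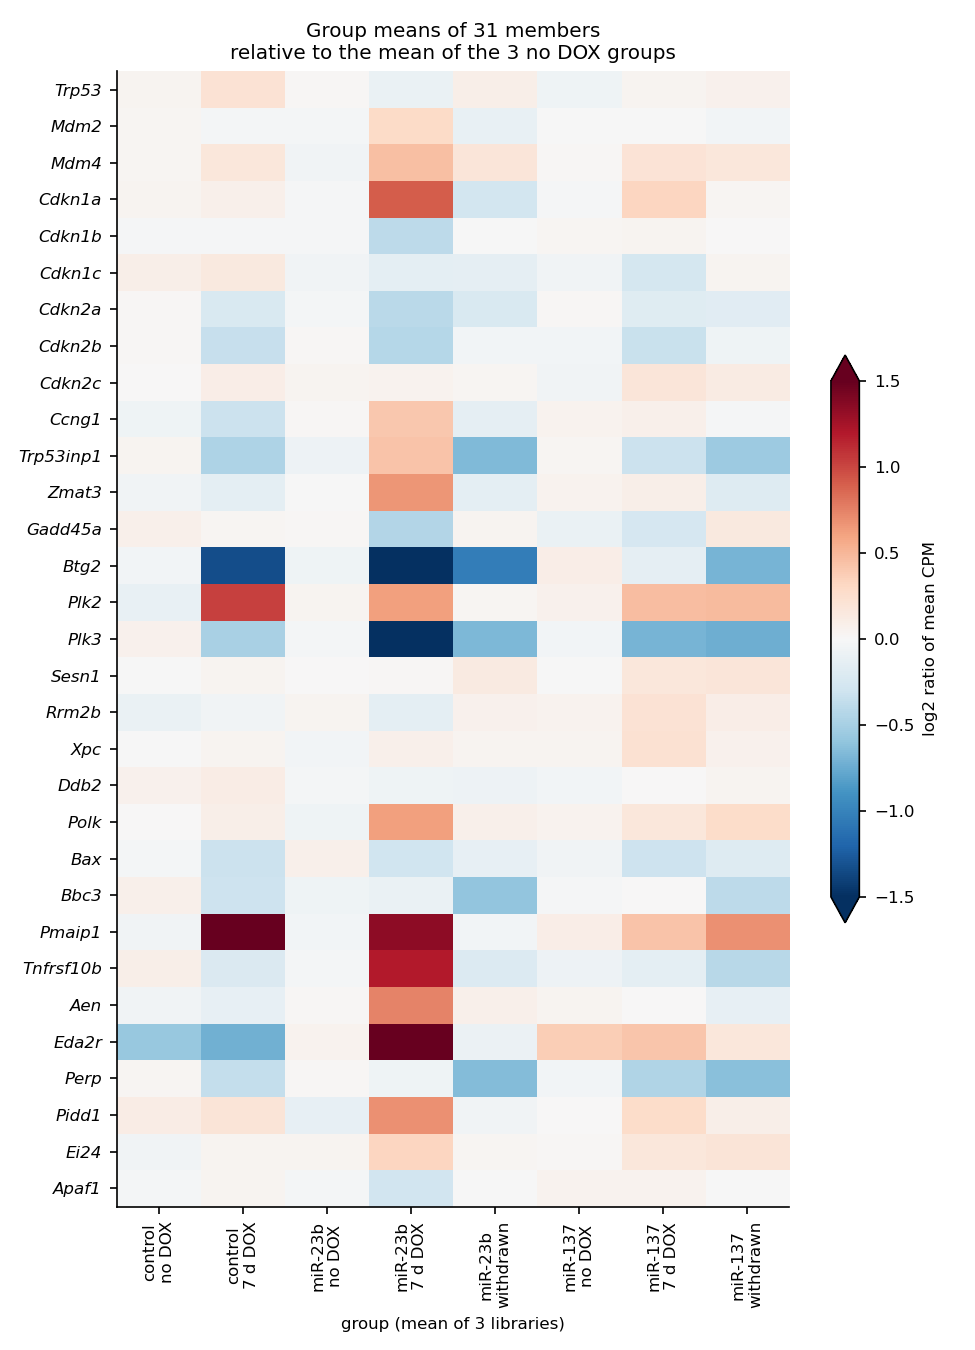
Log2 ratio of each group's mean CPM (3 libraries) to the mean of the 3 groups without DOX, for 31 members in rows and 8 groups in columns, with the colour scale clipped at 1.5 in both directions. The miR-23b column on DOX is the strongest, and in both withdrawn columns Btg2 and Plk3 are below the groups without DOX.

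Without DOX the lines were close in these genes. The miR-23b line differed from the control line in 1 member, Pidd1, lower by 0.23 (SE 0.06, adjusted p = 0.0101). Of all genes 6.37% were called, 3.59% higher and 2.78% lower, and 33.7% of the called genes were higher on the TPM scale against 56.3% here. The call was lost without miR-23b no DOX replicate 2 (-0.20, adjusted p = 0.0735). Cdkn1a differed by -0.06, Mdm2 by -0.06 and Trp53 by -0.03 (not called). Between the miR-137 and control lines edgeR called 0 of 31 members (2.7% of all genes called, 1.89% higher and 0.814% lower) and DESeq2 also 0, while 7 had an unadjusted p below 0.05. Trp53 was 0.11 lower there (adjusted p = 0.114), Cdkn1a 0.05 lower and Mdm2 0.04 lower.

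Other genes of the pathway, from 2 further lists, were mixed in direction. Of 24 further p53 targets, 9 rose and 8 fell in the miR-23b line on DOX (28.8% of all genes higher and 28.6% lower), with a median of -0.04 on the log2 scale beside 0.01 over all genes. The largest rises were Epha2, a receptor tyrosine kinase (1.17), Ak1, an adenylate kinase (0.98, SE 0.04), Dcxr, a xylulose reductase (0.73) and Fdxr, the ferredoxin reductase (0.62). The largest falls were Lpin1, a phosphatidate phosphatase (-0.92, SE 0.04), Sesn2, a sestrin also driven by ATF4 (-0.76), Steap3, a metalloreductase (-0.58) and Ddit4, an inhibitor of mTORC1 (-0.28). In the control line 2 rose and 8 fell (18.5% of all genes higher and 19.3% lower), among them Epha2, which rose by 2.67 (SE 0.38), and Lpin1, which fell by 0.65. Like Pmaip1, Epha2 had all 3 libraries above the filter's cutoff only in the control and miR-23b groups on DOX. The 9 and the 2 that rose include it, and its rises are descriptions. The miR-23b response exceeded the control response for 10 of the 24 and was below it for 5 (18.1% and 19.4% of all genes).

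Of 19 tested genes of the p53 family and its regulators, 5 rose and 6 fell in the miR-23b line, a share near the 57.4% of all genes called there. Trp73, which encodes the p53 relative p73 and is itself an E2F and p53 target, rose by 1.23 (SE 0.14, adjusted p = 8.9e-10). Rpl5, a ribosomal protein that binds MDM2, rose by 0.45, Trp53bp1, a damage adaptor, by 0.27 and Cop1, a ubiquitin ligase for p53, by 0.22. Atm, the damage kinase, fell by 0.47, Hipk2, a p53 kinase, by 0.44, Npm1, a nucleolar partner of ARF, by 0.43 and Rchy1, another ubiquitin ligase, by 0.21. Atm also fell by 0.46 in the miR-137 line and by 0.12 in the control line.

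Of 21 tested cyclins, CDKs, RB family genes and E2Fs, the machinery that the CDK inhibitors act on, 8 rose and 9 fell in the miR-23b line (28.8% of all genes higher and 28.6% lower). Ccnd3, cyclin D3, fell by 0.79 (SE 0.04), Cdkn3, a CDK phosphatase, by 0.67, Cdk4 by 0.66 (SE 0.03) and Ccne1, cyclin E1, by 0.31. Ccnd2, cyclin D2, rose by 0.93 (SE 0.12), E2f2 by 0.63, Ccne2 by 0.44 and Skp2, part of the ligase that degrades p27, by 0.33. The miR-23b response of Ccnd3 was below that of the control line by 0.59 (adjusted p = 4.8e-12) and that of Cdk4 by 0.50 (adjusted p = 3.4e-11).

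Beside these changes, 9 of 10 beta cell markers fell and 1 rose in the miR-23b line on DOX, Slc2a2, the glucose transporter GLUT2, by 2.31 (SE 0.13), Ins1 by 0.87 and Pdx1 by 0.43, while Pcsk1 rose by 0.65. In the control line 3 rose and 3 fell. Of all genes tested, 28.8% rose and 28.6% fell in the miR-23b line, and 18.5% and 19.3% in the control line. Pecam1, the endothelial marker that was tested, rose in the control line (1.87, SE 0.54) and the miR-23b line (1.39, SE 0.53) with its whole list at most at 1.28 CPM, and Col1a1 rose by 0.50 and 0.46. Cd68, the leukocyte marker that was tested, rose in the miR-23b line by 0.80 (SE 0.17, adjusted p = 0.000119), from a mean of 1.93 to 3.40 CPM, and changed by 0.00 in the control line, at a mean of 3.02 CPM with and without DOX. Its miR-23b response was above that of the control line by 0.81 (adjusted p = 0.0059) and that of the miR-137 line by 0.68 (adjusted p = 0.0287). On DOX the miR-23b and control lines were not found to differ in Cd68 (0.16, adjusted p = 0.382). Without DOX Cd68 was already lower in the miR-23b line than in the control line (-0.64, adjusted p = 0.0232). After withdrawal it stayed at a mean of 3.42 CPM in the miR-23b line, 0.82 above that line without DOX (adjusted p = 0.000246). Their part in the members' changes was not tested.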

How the data were processed

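Gene expression was measured by poly(A) RNA-seq in 24 libraries (8 groups of 3). Per the submitters' processing notes, the tools named are featureCounts, RSEM 1.2.19, HTSeq 0.6.1, STAR 2.4.0g and cutadapt 1.3, with builds mm10 and GRCm38, and no roles are stated. The deposited gene counts were used as they stand (15759849 to 24144737 per library). Entries outside genes (9.62 to 12.1%) and multiply aligned reads (25.4 to 27.7%) were left out. The authors' deposited TPM values served for levels between genes and as an alternative scale.

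Genes were filtered with filterByExpr, scaled by TMM and fitted as 8 group means with edgeR 4.0.16 (quasi-likelihood test, R 4.3.3), with Benjamini-Hochberg adjustment over 14866 genes and a threshold of 0.05 in 14 comparisons. The test was tested on simulated counts. Fold changes are log2, and each SE is the log2 fold change divided by the root of F. The common biological coefficient of variation was 3.00%. The triplicate wells are not said to be separate cultures, so the spread may be technical and p-values measure only that spread.

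Alternatives were DESeq2 1.42.0, RLE factors, no filter, only the groups compared, a replicate block, limma 3.58.1 on log2(TPM + 1), and each library left out. The members and gene lists were chosen with earlier results of these data known. Every member is accounted for. In each comparison up to 10 called members a direction are named, with Trp53, Mdm2 and Cdkn1a whatever their call, and up to 4 called genes a direction of each other list.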

Additional observations from a re-analysis of the deposited data

Results flagged for a closer look

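The DOX response of a member differed between lines, by a test of the difference in responses in the same edgeR fit, in 50 cases over 3 contrasts. Values are differences of log2 fold changes, and each passed an adjusted p of 0.05. Eda2r and Pmaip1 had all 3 libraries of a group above the cutoff of the filter on low counts only on DOX, where they are high. Their values here are descriptions. No explanation was weighed.

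In the miR-23b response minus the control response, the higher values were those of Eda2r (2.99), Tnfrsf10b (1.52), Trp53inp1 (1.01), Cdkn1a (0.89), Aen (0.78), Zmat3 (0.76), Pidd1 (0.73), Ccng1 (0.66), Polk (0.61), Mdm2 (0.37), Mdm4 (0.36), Bbc3 (0.34), Perp (0.31) and Ei24 (0.20). Of these genes, Bbc3 and Perp had no called change in the miR-23b line itself, and fell in the control line. The lower values were those of Plk3 (-1.14), Plk2 (-0.54), Gadd45a (-0.39), Cdkn1b (-0.38), Apaf1 (-0.33), Trp53 (-0.29), Btg2 (-0.25) and Rrm2b (-0.22). The Rrm2b value was not called with any of 6 of the 12 libraries left out in turn: control no DOX replicate 1, control 7 d DOX replicates 1 and 2, miR-23b no DOX replicate 1, and miR-23b 7 d DOX replicates 2 and 3 (-0.20 to -0.17).

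In the miR-23b response minus the miR-137 response, the higher values were those of Eda2r (2.80), Tnfrsf10b (1.32), Trp53inp1 (0.86), Aen (0.75), Zmat3 (0.63), Cdkn1a (0.58), Polk (0.57), Pidd1 (0.56), Ccng1 (0.37), Perp (0.33), Mdm4 (0.33), Mdm2 (0.31) and Ei24 (0.14). The lower values were those of Btg2 (-1.30), Plk3 (-1.04), Cdkn1b (-0.39), Rrm2b (-0.33), Gadd45a (-0.30), Apaf1 (-0.26), Trp53 (-0.23), Cdkn2c (-0.22) and Cdkn2a (-0.18). The values of Cdkn2a and Perp were each lost in 6 and 3 of 12 removals of a library, and that of Cdkn2c without miR-137 no DOX replicate 3 (-0.16).

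In the miR-137 response minus the control response, the values were 1.05 for Btg2, 0.39 for Bbc3, 0.31 for Cdkn1a, 0.29 for Ccng1, -0.74 for Plk2 and -2.18 for Pmaip1. That of Bbc3 was lost in 8 of 12 removals of a library (0.30 to 0.41). The 2 contrasts against the control line share its libraries.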

How the results depend on the processing

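Over the 211 member results named, the calls kept direction and side of the threshold in 200 with DESeq2 (10 lost), 210 with RLE factors, 205 without the filter on low counts, 209 with only the groups compared, 175 with limma on log2(TPM + 1) and 184 with that scale centred, an alternative chosen after seeing the data. The TPM result lost 34 and the centred one 26. Counts of called members stayed within 1.5 times of the main value except between lines without DOX. There miR-137 against control moved from 0 to 2 without the filter, 1 with the replicate block and 1 with only the groups compared. With 1 library left out, the counts ranged from 13 to 14 for the control line on DOX, 23 to 24 for miR-23b, 15 to 19 for miR-137, 19 to 22 and 5 to 6 for the miR-23b and miR-137 responses against control, 19 to 23 for miR-23b against miR-137, and 0 to 1 for miR-23b against control without DOX. That last call was lost without miR-23b no DOX replicate 2. In all, 27 single calls were lost with at least 1 library left out, 3 of them with each.

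Values near 0 changed sign and stayed uncalled: Mdm2 in the miR-137 line on DOX without miR-137 no DOX replicate 1 (-0.0048; up to 0.0184 in the other removals), Trp53 in miR-137 withdrawn against DOX on the TPM scale (-0.0017), without 7 d DOX replicate 3 (-0.0040) and without withdrawn replicate 3 (-0.0054; up to 0.0543 in the other removals), and Cdkn1a in miR-137 withdrawn against no DOX on the TPM scales (-0.036, centred -0.013). The causes were not tested. The replicate block moved none of the 211 results across the threshold. Same-numbered libraries of different groups had a median r of 0.0274 in their deviations from group means (84 pairs, -0.0661 to 0.183). Over 168 pairs of other numbers it was -0.0138. These correlations were small, but 20 of 24 libraries correlated best with their own number, so some structure goes with the number. The main fit has no replicate block. The low counts of Eda2r, Pmaip1, Tnfrsf10b and Fas limit what can be said of them.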
